A study of Sus scrofa with 12 samples.

Results

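The MAP kinase cascade and its dual-specificity phosphatases were followed through the m6A peak lists of boar sperm. Members were all mRNA genes of the RefSeq annotation of the pig genome whose symbols name a MAP kinase (MAPK), a kinase upstream of it (MAP2K, MAP3K, MAP4K, TAOK, PAK), a kinase that MAP kinases activate (MAPKAPK), a JNK scaffold (MAPK8IP) or a dual-specificity phosphatase (DUSP). The rule took 81 of 20678 mRNA genes and used no measured value. They comprised 13 MAPK, 7 MAP2K, 18 MAP3K, 5 MAP4K, 3 TAOK, 6 PAK, 3 MAPKAPK, 3 MAPK8IP and 23 DUSP genes.

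Ejaculates of 3 Duroc boars were each divided equally between fresh sperm (Fs), which went straight into liquid nitrogen for RNA, and frozen-thawed sperm (Fts). The Fts part was cooled to 17 °C, moved into lactose-egg yolk extender, cooled to 4 °C, diluted again with extender that held 6% glycerol, and frozen. Sequencing covered 12 libraries, of which 6 were immunoprecipitated (IP) with an antibody against m6A, 3 from Fs and 3 from Fts, each with an input library of unselected RNA fragments. A peak is a stretch of mRNA with more IP than input reads in that sample, and its score, written by the peak caller MACS, grows with the evidence for that excess and with read depth. The lists carry no read depth. A gene without a peak may be unmethylated, weakly expressed or too thinly covered, and these cannot be told apart. By the study's sequencing summary, every Fts sample had fewer mapped IP reads than any Fs sample. Mapped input reads were also fewer in most Fts samples. Depth thus differed along with the groups, and its part in the results was not tested.

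A MAP kinase cascade passes a signal down a chain of protein kinases: a MAP3K phosphorylates a MAP2K, and the MAP2K phosphorylates a MAP kinase of the ERK, JNK or p38 type on a threonine and a tyrosine. MAP4K and PAK kinases feed into the chain from above, and TAO kinases phosphorylate MAP2K kinases, as a MAP3K does. Scaffolds hold the members of the chain together, and some dual-specificity phosphatases remove both phosphates and end the signal. The symbol rule took DUSP genes whether or not they act on MAP kinases. In sperm these kinases are known for parts in motility, capacitation and the acrosome reaction. Mature sperm are largely silent in transcription, so their mRNAs are mostly left from spermatogenesis. m6A is a methyl mark on adenosines of RNA that reader proteins bind and that bears on the stability and translation of the transcript.

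At least 1 peak in any sample was found on 52 members (64.2%), and on 11705 (56.6%) of all mRNA genes. Members had longer transcripts, with a median of 4503 nt against 2858 nt over all genes. The members carried 30, 39 and 38 peaks in Fs and 35, 61 and 59 in Fts, with means of 35.7 and 51.7. The Fts samples 2 and 3 lay above every Fs sample, whereas Fts sample 1 fell within the Fs range. The whole lists held 8015, 10378 and 10335 peaks in Fs and 9682, 11510 and 11982 in Fts. With only peaks of a score of at least 20 the difference in the members' mean peak number fell from 16 to 5, and with a score of at least 50 it was 0. With the 8015 peaks of highest score from each sample it was 7.67, and with peaks of adjoining exons merged it was 9.67.

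The number of member genes with a peak did not follow the number of peaks. It was 25, 30 and 28 in Fs and 21, 31 and 28 in Fts, and the groups overlapped. What separated the groups was the number of peaks per gene. Members with at least 2 peaks numbered 4, 6 and 7 in Fs and 11, 12 and 15 in Fts. Over all genes this number was 1176, 1704 and 1740 in Fs and 1734, 2196 and 2254 in Fts, where the groups overlapped. The peaks per member with a peak were 1.20, 1.30 and 1.36 in Fs and 1.67, 1.97 and 2.11 in Fts, and every Fts sample lay above every Fs sample. Over all genes the same quantity was 1.31, 1.39 and 1.39 in Fs and 1.53, 1.70 and 1.64 in Fts. Only 20, 20.5 and 18.4% of the members' peaks had a score of at least 50 in Fs, and 11.4, 14.8 and 13.6% in Fts. These shares rest on 6, 8 and 7 peaks in Fs and 4, 9 and 8 in Fts, and these numbers overlapped. Over all genes the share was 18.2, 16.0 and 15.3% in Fs and 20.7, 27.6 and 22.5% in Fts. The order of the groups by share was thus the opposite.

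**Figure D1:**
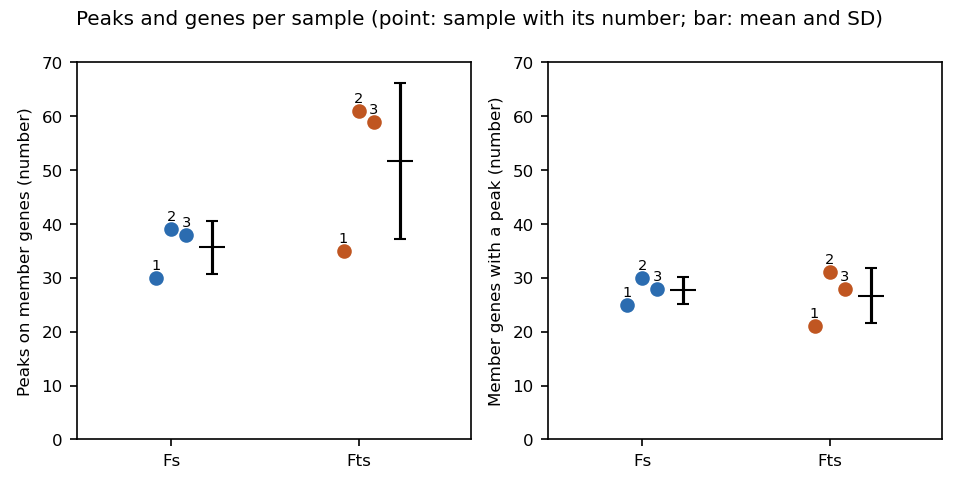
Number of peaks on the 81 member genes (left panel) and number of member genes with a peak (right panel) in each sample, with the mean and SD of 3 samples per group. Peaks reached 61 and 59 in Fts samples 2 and 3, against at most 39 in Fs, while genes with a peak lay between 21 and 31 in both groups.

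A gene was called different when its peak numbers in the groups did not overlap. More peaks in every Fts than in any Fs sample were found for 4 of the 52 members with a peak (7.69%), namely MAP4K3, MAP3K9, MAPK6 and MAPK10, and the share over all genes with a peak was 8.98%. The opposite was found for 3 members (5.77%), MAPK8IP2 and DUSP5 among them, against 5.36% of all genes. Both shares were near the background. The mean peak number was higher in Fts for 21 members, lower for 24 and equal for 7, with a median difference of 0, as over all genes. With 3 samples per group, the smallest p is 0.25 for the exact sign-flip test and 0.1 for the exact permutation test, so 0 of 11705 genes had an unadjusted p under 0.05 by either test. Any omitted sample leaves fewer samples to be passed. Leaving out Fs sample 2 raised the counts from 4 to 9 and from 3 to 6, while without Fs sample 3 they were 5 and 4. The count of 4 also became 8 without Fts sample 1 and 7 without Fts sample 2, and the count of 3 became 5 without Fs sample 1 or Fts sample 3.

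The highest score of a gene in each sample gave a further call, with a sample without a peak set below every score. It was higher in every Fts sample for 8 members (15.4%, against 13.2% of all genes with a peak), which were DUSP16, MAP3K2, MAP3K9, MAP4K3, MAPK10, MAPK6, PAK1 and PAK2. It was higher in every Fs sample for 7 members (13.5%, against 10.7%), among them DUSP13, DUSP5, MAP2K2, MAP3K19, MAPK8IP2 and TAOK2. Scores are not scaled between samples. With the rank of the score within its own sample in place of the score, PAK1 and PAK2 no longer separated the groups and MAPK8IP1 did, higher in Fs.

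**Figure D2:**
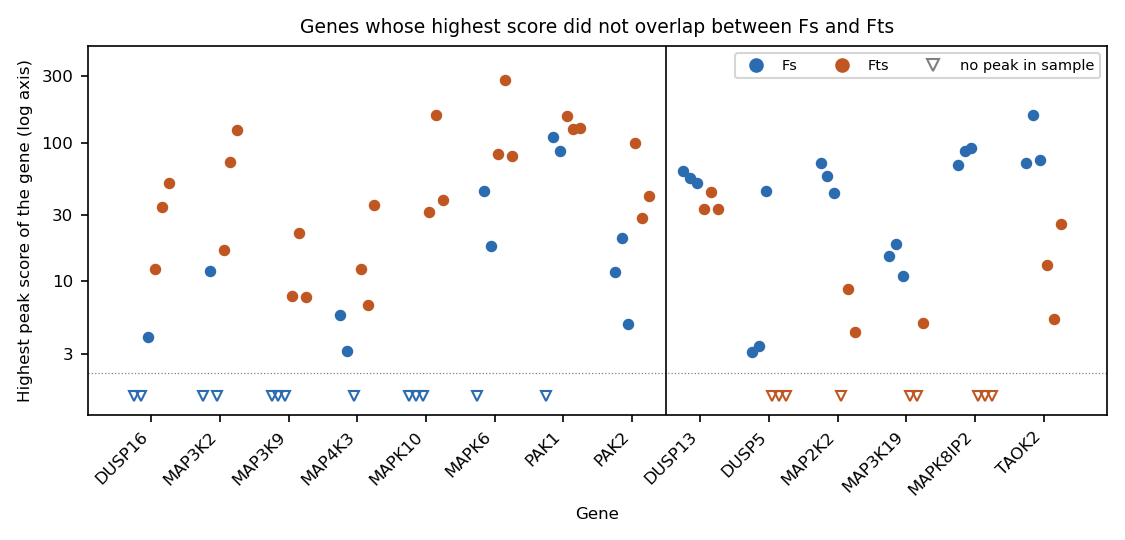
Highest peak score of each gene (vertical axis, log scale) in the 3 Fs and 3 Fts samples, for the 8 members higher in every Fts sample (left) and 6 of the 7 higher in every Fs sample (right). Open triangles mark samples without a peak, and MAPK6 reached the highest score, 283 in Fts sample 2.

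Peaks that overlapped between samples were joined into 136 regions on members. A peak in all 6 samples was found in 3 regions (2.21%, against 3.31% of all regions on mRNA exons), on MAP4K1, TAOK2 and DUSP13. A peak in 3 Fts and 0 Fs samples was found in 13 regions (9.56%, against 6.82%), with 2 each on MAPK6 and PAK2 and 1 each on TAOK3, MAP4K3, MAP4K4, PAK1, MAP3K2, MAP3K9, MAPK10, DUSP16 and DUSP27. A peak in 3 Fs and 0 Fts samples was found in 6 regions (4.41%, against 3.63%), among them regions on PAK2, MAP3K12, MAP3K19, MAPK8IP2 and DUSP5. Regions with a peak in 1 sample only made up 53.7% on members and 47.3% overall. Without Fts sample 1 the Fts count rose from 13 to 24, and the count in all samples rose from 3 to 6 without Fs sample 1 and to 5 without any 1 of the Fts samples. With a score of at least 50 it was 0 for regions in all samples and for regions of Fts.

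Coding regions with the highest mean scores among these are printed, 1 that had a peak in all samples and 6 that had peaks in 1 group alone. Each is the whole exon on the transcript strand, 5′ to 3′, from the Sscrofa11.1 (susScr11) genome, and capitals mark the motif GGACT, a common form of the m6A consensus. The MAP4K1 region lies at chr6:47465809-47465893 (minus strand, exon 21 of 32) and had a peak in all 6 samples. The Fts regions are those of PAK2 at chr13:133310321-133310453 (minus, exon 7 of 15), MAP3K2 at chr15:25149940-25150053 (plus, exon 6 of 17), MAPK6 at chr1:119728606-119728807 (minus, exon 5 of 6) and MAPK10 at chr8:132709617-132709741 (plus, exon 10 of 13). The Fs regions are those of MAPK8IP2 at chr5:127976-128248 (minus, exon 3 of 13) and DUSP5 at chr14:120914388-120914607 (plus, exon 3 of 4).
MAP4K1: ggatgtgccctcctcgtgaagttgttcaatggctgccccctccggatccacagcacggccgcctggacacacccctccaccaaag
PAK2: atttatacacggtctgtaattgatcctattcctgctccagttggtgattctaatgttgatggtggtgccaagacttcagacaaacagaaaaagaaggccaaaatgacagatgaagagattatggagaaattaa
MAP3K2: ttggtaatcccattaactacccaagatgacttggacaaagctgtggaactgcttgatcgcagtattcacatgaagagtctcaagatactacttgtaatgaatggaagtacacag
MAPK6: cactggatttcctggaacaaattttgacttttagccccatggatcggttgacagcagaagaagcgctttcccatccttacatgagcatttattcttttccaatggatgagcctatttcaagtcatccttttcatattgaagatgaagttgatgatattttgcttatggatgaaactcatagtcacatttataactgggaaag
MAPK10: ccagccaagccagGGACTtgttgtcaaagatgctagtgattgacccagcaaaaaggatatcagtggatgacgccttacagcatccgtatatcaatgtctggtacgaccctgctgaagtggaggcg
MAPK8IP2: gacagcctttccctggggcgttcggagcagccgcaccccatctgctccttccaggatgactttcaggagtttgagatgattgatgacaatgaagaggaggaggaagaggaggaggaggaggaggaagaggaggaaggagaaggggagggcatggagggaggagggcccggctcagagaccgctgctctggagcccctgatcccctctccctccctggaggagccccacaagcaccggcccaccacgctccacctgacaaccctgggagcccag
DUSP5: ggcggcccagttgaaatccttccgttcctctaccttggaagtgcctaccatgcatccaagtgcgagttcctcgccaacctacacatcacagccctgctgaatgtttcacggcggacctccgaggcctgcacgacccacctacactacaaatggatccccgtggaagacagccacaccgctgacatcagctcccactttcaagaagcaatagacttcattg

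Of these 7 exons, MAPK10 alone held GGACT. The exons of MAP4K1 and MAP3K2 each held 1 GGACA and that of DUSP5 held 1 GGACC. In windows of 100 nt of the spliced transcript centred on the regions, GGACT stood in 10 of 120 member windows (8.33%) and in 2339 of 23380 windows over all genes (10%). GGACT or either of those other 2 forms stood in 30% of the member windows and 31.9% of all windows. The motif was searched on the transcript strand only. The exons also differed in base composition, from 37.6% G and C in PAK2 and MAPK6 to 63.0% in MAPK8IP2 and 63.5% in MAP4K1. Over all samples, 218 of 262 member peaks (83.2%) began or ended at an exon boundary, so a listed peak often marks an exon and not the methylated base.

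The MAPK, MAP3K, MAP4K, TAOK and PAK families held more peaks in Fts by their means. The 5 MAP4K genes carried 4, 5 and 4 peaks in Fs and 6, 10 and 11 in Fts. The 3 TAOK genes carried 3, 1 and 3 in Fs and 5, 6 and 8 in Fts. The groups did not overlap for either family in the full lists or with peaks of adjoining exons merged. They overlapped in both families with 8015 peaks per sample and at score minimums of 20 and 50. With 8015 peaks per sample, MAP4K genes carried 4, 3 and 4 peaks in Fs and 6, 3 and 7 in Fts, and TAOK genes 3, 1 and 1 in Fs and 3, 3 and 7 in Fts. The 6 PAK genes carried 3, 9 and 3 peaks in Fs and 5, 15 and 13 in Fts, and here the groups overlapped. Over all mRNA genes the peaks numbered 6860, 8870 and 8775 in Fs and 8515, 10425 and 10726 in Fts, and the groups overlapped. Families of genes outside the members were not compared.

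MAP4K1, a kinase of blood cells also called HPK1, had peaks in every sample. It carried 3, 2 and 3 peaks in Fs and 2, 2 and 3 in Fts. Its exon 21 scored 52.6, 50.4 and 33.0 in Fs and 31.0, 17.2 and 68.7 in Fts, so the groups overlapped. MAP4K3, a kinase linked to amino acid sensing, carried 1, 1 and 0 peaks in Fs and 2, 4 and 5 in Fts. All of its 13 peaks lay in coding sequence. Exon 21 of 34 had a peak in every Fts sample, with scores of 6.16, 4.29 and 35.7, and no Fs peak overlapped it. The MAP4K3 peaks in Fs were weak, with scores of 5.78 and 3.14, and the call was lost with 8015 peaks per sample. MAP4K4, a kinase upstream of JNK, carried 0, 2 and 1 peaks in Fs and 2, 4 and 2 in Fts, and the groups met at 2. Its exon 10 of 33 was a peak only in Fts, at scores of 4.97, 18.8 and 7.99.

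TAO kinases phosphorylate MAP2K kinases of the p38 branch. TAOK1 had no peak in any Fs sample nor in Fts sample 1, and 4 peaks each in Fts samples 2 and 3. The exons 18 and 19 were shared by both of these samples. TAOK2 kept a similar number of peaks, 2, 1 and 3 in Fs and 3, 1 and 2 in Fts, but its scores did not overlap between the groups. The highest score was 71.5, 158 and 74.7 in Fs and 13.1, 5.34 and 25.9 in Fts, each at the same region of up to 1271 bp (chr3:18194637-18195907). Of its 1271 bp, 213 lie on exons of the 3 annotated coding transcripts, and the rest on exons of non-coding variants of the gene. TAOK3 carried 1, 0 and 0 peaks in Fs and 2, 1 and 2 in Fts. A region at its stop codon had a peak in every Fts sample, at low scores of 4.22, 3.36 and 9.94.

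PAK1, a kinase activated by the small GTPases RAC1 and CDC42, had the most peaks of all members, 25 over the 6 samples. It carried 0, 4 and 2 peaks in Fs and 3, 9 and 7 in Fts, and the groups overlapped. Exon 10 of 16 was the site of a peak in 5 samples, all but Fs sample 1, with scores of 109 and 87.3 in Fs and 155, 50 and 55.3 in Fts. Exon 15 had a peak in Fts samples 2 and 3 only, with scores of 109 and 127. PAK2, the widely expressed relative, carried 1, 2 and 1 peaks in Fs and 2, 4 and 3 in Fts. The numbers met at 2, but the place of the peaks did not overlap except at exon 6. A stretch of its 3′ UTR had a peak in every Fs sample, with scores of 11.7, 20.5 and 4.95, and in no Fts sample. It is 3′ UTR in 1 of the 3 annotated coding transcripts and lies outside the other 2. Exons 4 and 7, both coding, had a peak in every Fts sample and in no Fs sample. Exon 7 scored 98.7, 25.7 and 41.3, and exon 4 scored 11.2, 6.29 and 4.18. PAK3 carried 0, 1 and 0 peaks in Fs and 0, 2 and 3 in Fts, whereas PAK4, PAK5 and PAK6 had 4 peaks in all, each in an Fs sample.

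**Figure D3:**
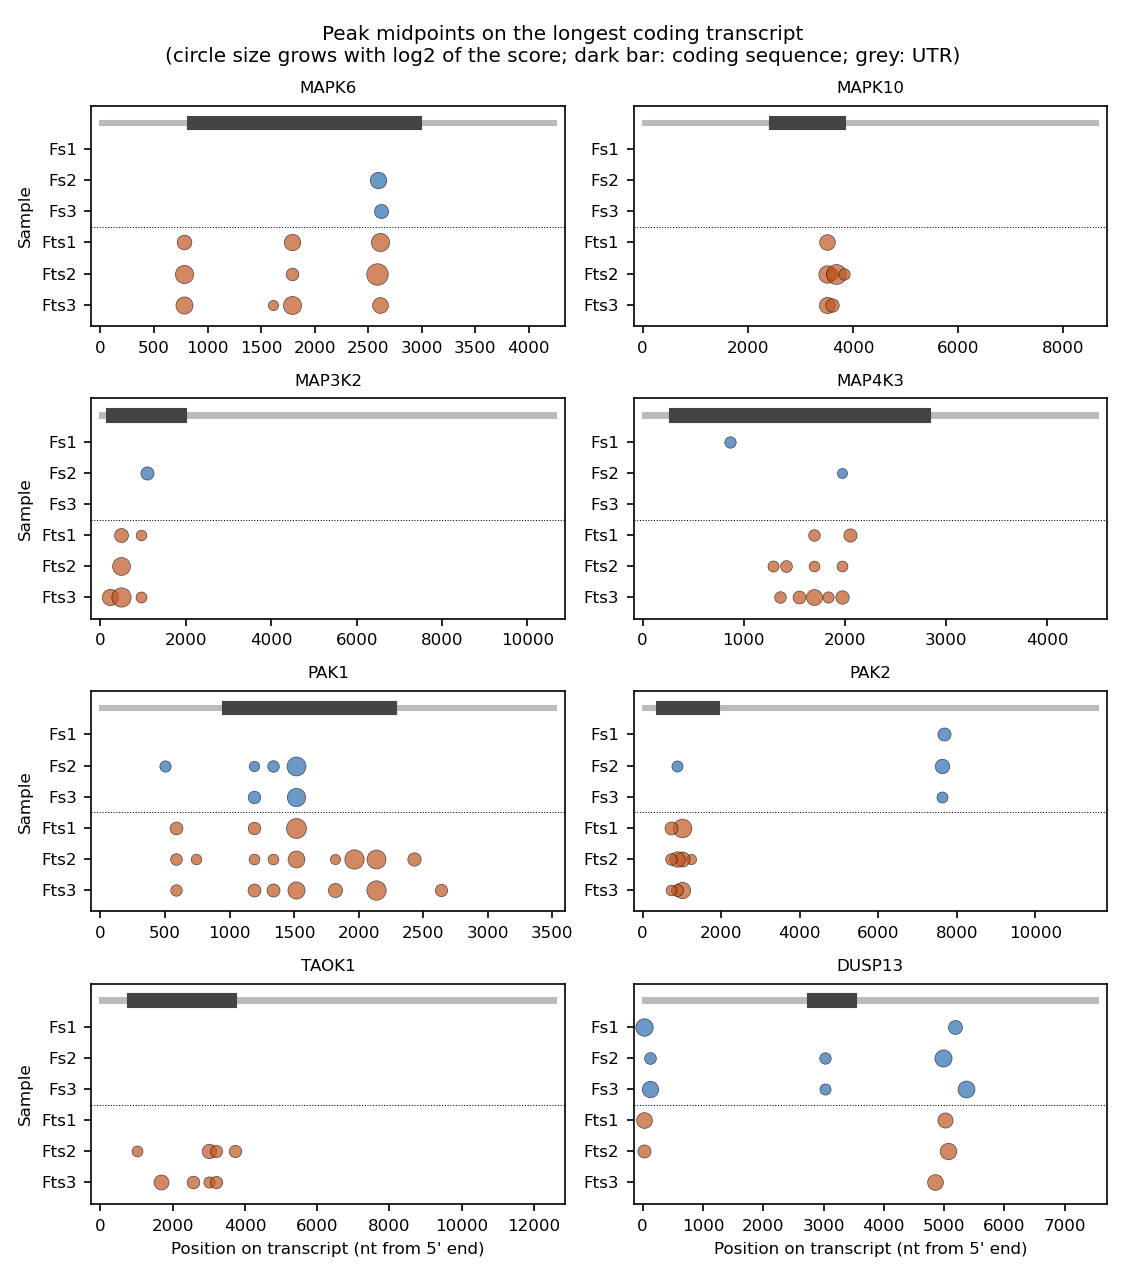
Midpoints of peaks along the longest coding transcript of 8 members (horizontal axis, nt from the 5′ end) in each of the 6 samples, with the coding sequence as a dark bar and circle size growing with log2 of the score. PAK2 had a 3′ UTR peak in every Fs sample, with a coding peak as well in Fs sample 2, and had coding peaks alone in Fts, and MAPK10 and TAOK1 had no Fs peak.

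Of the 18 MAP3K genes, 15 had a peak in some sample. The family carried 8 peaks in each Fs sample and 8, 10 and 15 in Fts. MAP3K2, also called MEKK2 and known to act on MAP2K5, carried 0, 1 and 0 peaks in Fs and 2, 1 and 3 in Fts. Its exon 6 scored 16.8, 72.5 and 123 in Fts and had no peak in Fs. The Fs peak, at a score of 11.8, lay on exon 12. MAP3K9, a mixed-lineage kinase of the JNK branch, had no peak in Fs and 1 peak in each Fts sample, with scores of 7.88, 22.4 and 7.76, all on exon 8 of 12. MAP3K19 and MAP3K12 ran the other way at single regions. MAP3K19 exon 5 scored 15.3, 18.5 and 11.0 in Fs, and its only Fts peak lay on another exon at 5.03. The Fs region of MAP3K12, a kinase of neurons also called DLK, scored 5.12, 15.1 and 4.73. MAP3K21 had a peak in every sample, 1 each apart from 2 in Fts sample 3.

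Among the 7 MAP2K genes, which phosphorylate the MAP kinases themselves, no call was made in peak number in the full lists. MAP2K2, which activates ERK, had 1 peak in each sample but Fts sample 1, always at the same 421 bp, which span its first exon. The score was 70.7, 57.3 and 43.6 in Fs and 8.79 and 4.33 in Fts samples 2 and 3, and the groups did not overlap. MAP2K1, the other kinase of the ERK branch, carried 0, 2 and 0 peaks in Fs and 1, 1 and 0 in Fts. MAP2K5, the kinase of MAPK7, carried 1 peak in each sample and 2 in Fts sample 2. MAP2K7, of the JNK branch, had 1 peak each in Fs samples 2 and 3 and none in Fts. MAP2K6, of the p38 branch, had 1 peak in Fts sample 2, and MAP2K3 and MAP2K4 had none.

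Among the MAP kinases themselves, MAPK3, an ERK gene, and MAPK7, which encodes ERK5, had no peak. MAPK6, an atypical MAP kinase also called ERK3, was the member with the highest score. It carried 0, 1 and 1 peaks in Fs and 3, 3 and 4 in Fts. Its last exon had a peak in 5 samples, with scores of 44.5 and 18.1 in Fs and 82.7, 283 and 33.2 in Fts. Exon 5 scored 42.8, 9.64 and 79.8 in Fts and had no peak in Fs. A region of 1193 bp around the start codon scored 22.3, 84.3 and 54.7 in Fts and again had no peak in Fs. MAPK4, the close relative ERK4, had 1 weak peak in Fs sample 1.

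MAPK10 encodes JNK3, the JNK best known from brain, heart and testis. It had no peak in Fs and 1, 4 and 2 peaks in Fts. Its exon 10 scored 31.7, 61.4 and 38.8 in Fts. Peaks on the neighbouring exons 11 to 13 made up the rest, and with peaks of adjoining exons merged, each Fts sample had 1. The other JNK genes differed from it in the lists: MAPK9 had 1 peak in Fs sample 3 and MAPK8 had none. Of the p38 genes, MAPK12 had 1 peak in Fs sample 2, while MAPK11, MAPK13 and MAPK14 had none. MAPK15 also lacked a peak. Downstream, MAPKAPK2, a target of p38, had a peak at its stop codon in Fs sample 3 and in Fts sample 2, at 65.8 and 21.4, and MAPKAPK3 and MAPKAPK5 had none.

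The MAPK8IP scaffolds and the phosphatases had fewer peaks in Fts than in Fs by their means. The 3 MAPK8IP genes carried 3, 2 and 3 peaks in Fs and 1, 2 and 0 in Fts, and the groups met at 2. MAPK8IP2 had 1 peak in each Fs sample, with scores of 69.2, 86.3 and 91.8, and none in Fts. This call held at a minimum score of 20 and of 50. MAPK8IP1 carried 2, 1 and 2 peaks in Fs and 1, 1 and 0 in Fts. Its exon 3 of 12 scored 39.6, 109.6 and 93.3 in Fs and 37.4 and 52.1 in Fts samples 1 and 2. MAPK8IP3 had 1 peak, at its start codon in Fts sample 2, with a score of 99.1.

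The 23 DUSP genes carried 5, 6 and 10 peaks in Fs and 4, 5 and 4 in Fts, and the groups met at 5. Only 9 of them had a peak in any sample. DUSP13, known as a phosphatase of testis and skeletal muscle, carried 2, 3 and 3 peaks in Fs and 2, 2 and 1 in Fts. A long stretch of its 3′ UTR had a peak in all 6 samples, with scores of 16.9, 55.9 and 51.2 in Fs and 25.9, 44.3 and 33.4 in Fts, and the groups overlapped. A second place, at the 5′ end of the transcript, had a peak in every sample but Fts sample 3. The highest score of the gene was 62.2, 55.9 and 51.2 in Fs, above 33.1, 44.3 and 33.4 in Fts. DUSP5, a nuclear phosphatase of ERK, had 1 peak in each Fs sample, with scores of 3.13, 3.45 and 44.6, and none in Fts. All lay on its exon 3, and the call was lost with 8015 peaks per sample. DUSP16, a phosphatase of JNK and p38, had a peak at its start codon in every Fts sample, with scores of 12.2, 34.2 and 51.0, and the only Fs peak lay in its 3′ UTR at 3.98. The DUSP27 region of Fts was weak, with scores of 5.27, 3.77 and 5.11. DUSP1, which is induced by stress, had 1 peak in Fs samples 1 and 3 and none in Fts.

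**Figure D4:**
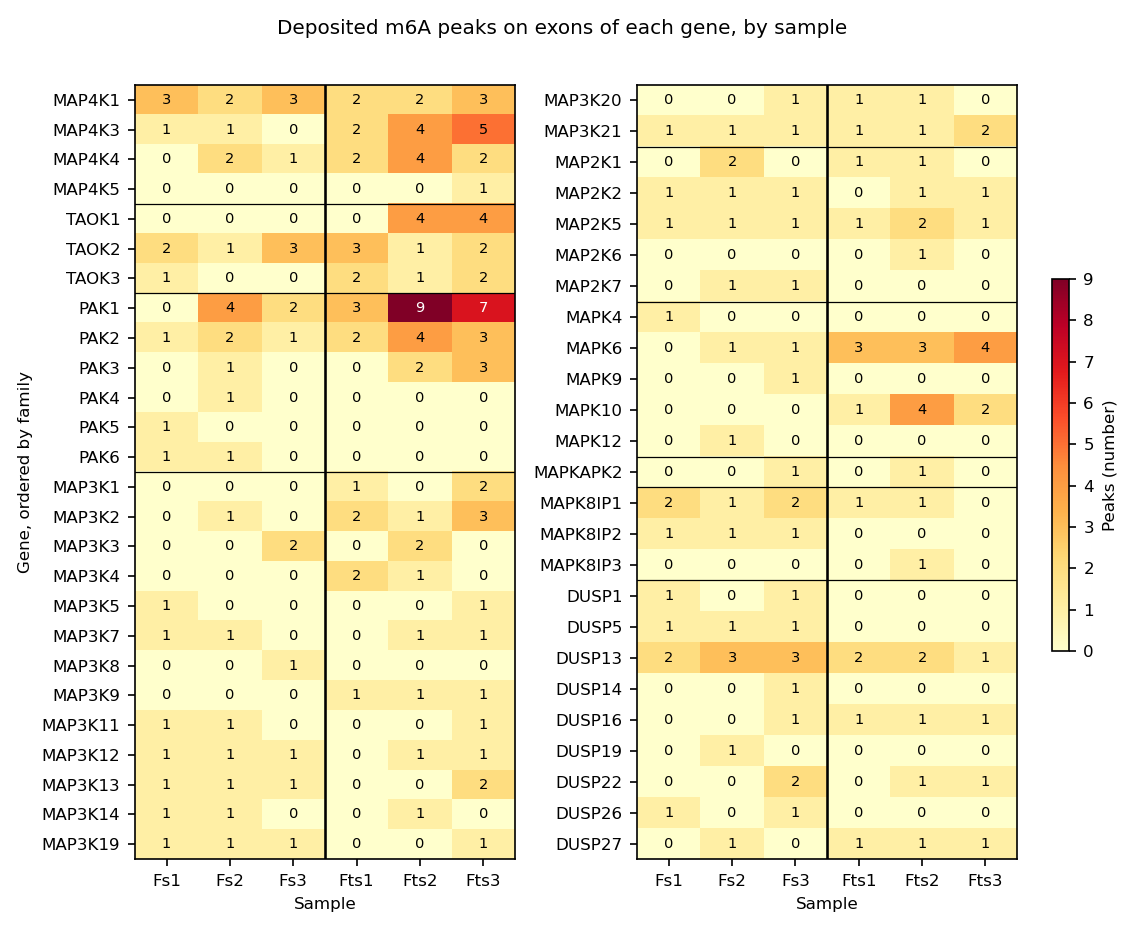
Number of peaks (colour and figure in each cell) on the exons of members with a peak, all but 1 of them shown, by gene in rows and sample in columns, with a line between Fs and Fts and between families. PAK1 had up to 9 peaks, MAPK10 had peaks in Fts only, and MAPK8IP2 and DUSP5 in Fs only.

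Members without a peak in any sample numbered 29. These were DUSP2, DUSP3, DUSP4, DUSP6, DUSP7, DUSP8, DUSP9, DUSP10, DUSP11, DUSP12, DUSP18, DUSP21, DUSP23, DUSP28, MAP2K3, MAP2K4, MAP3K6, MAP3K10, MAP3K15, MAP4K2, MAPK3, MAPK7, MAPK8, MAPK11, MAPK13, MAPK14, MAPK15, MAPKAPK3 and MAPKAPK5. They had shorter transcripts, a median of 3420 nt against 4985 nt for the members with a peak.

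Coding sequence held the largest share of the member peaks in each of the 6 samples. The share was 63.3, 59.0 and 50% in Fs and 65.7, 65.6 and 71.2% in Fts, or 57.4% ± 6.80 and 67.5% ± 3.20 (SD, n = 3), with every Fts sample above every Fs sample. Coding sequence made up 32.1% of the members' transcript length. Over all genes the shares were 63.1% ± 0.766 in Fs and 68.3% ± 0.505 in Fts, also with every Fts sample above every Fs sample. On members, the gap of 10.1 points between the groups grew to 23.7 with a minimum score of 20 and to 33.3 with 50, where 6, 8 and 7 peaks were left in Fs and 4, 9 and 8 in Fts. The 3′ UTR made up 46.9% of the length. It held 14.0% ± 1.59 of the member peaks in Fs and 6.35% ± 0.562 in Fts, again without overlap. These shares rest on few peaks, out of 30, 39 and 38 in Fs and 35, 61 and 59 in Fts. Over all genes the 3′ UTR held 8.4% in Fs and 6.88% in Fts, also without overlap. Member peaks whose midpoint lay outside the longest coding transcript made up 16.6% in Fs and 8.82% in Fts. Over all genes such peaks made up 10.7% and 8.80%.

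**Figure D5:**
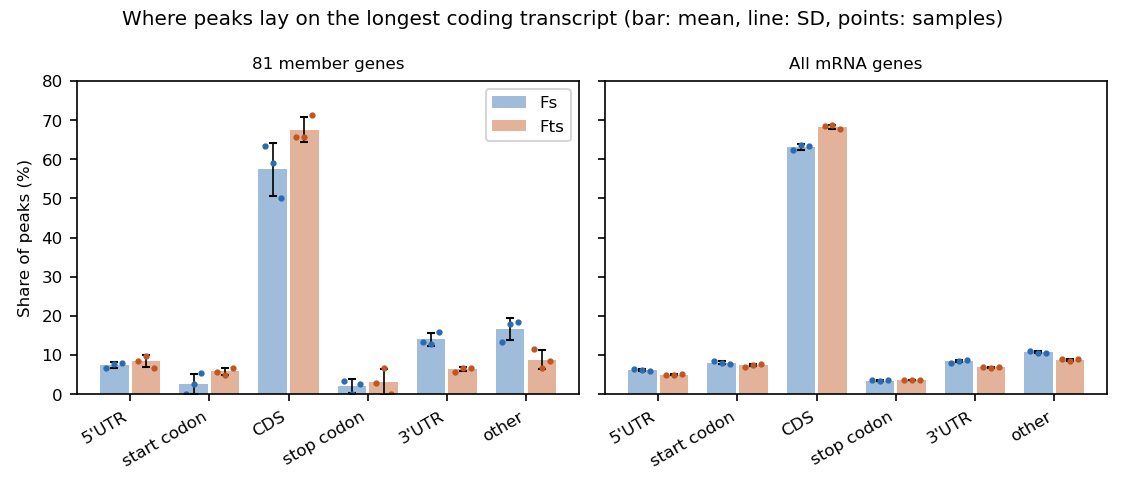
Share of peaks (vertical axis, %) by place on the longest coding transcript, for the member genes (left) and all mRNA genes (right), with bars for the mean of 3 samples, lines for the SD and points for samples. Coding sequence held the largest share in both sets, and in both the 3′ UTR share was lower in every Fts sample than in any Fs sample.

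Other genes of the pathway, 54 that act before, beside or after the chain, were examined in the same way, and 39 had a peak. Peak numbers were higher in every Fts sample for SOS1, BRAF, RAC1, SPAG9, TAB2, RPS6KA3 and ATF2, and higher in every Fs sample for NRAS and MAPKBP1. These are 7 genes (17.9%, against 8.98% of all genes) and 2 genes (5.13%, against 5.36%). The list carried 17, 32 and 31 peaks in Fs and 39, 42 and 55 in Fts. SPAG9, a JNK scaffold first described in sperm, carried 1, 0 and 0 peaks in Fs and 8, 8 and 11 in Fts. BRAF, a MAP3K-type kinase of the ERK branch named outside the MAP3K symbols, carried no peak in Fs and 2, 4 and 4 in Fts. RPS6KA3, a kinase that ERK activates, carried none in Fs and 4, 4 and 3 in Fts. The GTPase NRAS carried 1, 1 and 2 peaks in Fs and none in Fts.

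The labelled cell type was checked by the presence of peaks, which show enriched stretches and not levels. Of 15 sperm genes, 6 had a peak, namely PRM2, ODF2, AKAP3, LDHC, SPATA18 and CATSPER1. The protamine gene PRM1, the transition protein gene TNP1, ODF1, AKAP4, SMCP, GAPDHS, TSSK6, TEKT1 and HSPA1L had none. Markers of leukocytes (4 of 5), epithelium (3 of 4), connective tissue (4 of 4) and immature germ cells (1 of 2) also had peaks. The study's methods include a detergent wash of the sperm pellet meant to remove somatic cells. The epithelial markers carried 0, 1 and 2 peaks in Fs and 5, 5 and 4 in Fts, of which KRT8 carried 3, 4 and 2 in Fts and none in Fs. The leukocyte markers carried 0, 2 and 3 in Fs and 0, 1 and 3 in Fts. The connective tissue markers carried 4, 4 and 3 in Fs and 4, 1 and 3 in Fts, and the sperm genes 2, 2 and 3 in Fs and 4, 6 and 3 in Fts. Besides KRT8, the sperm gene SPATA18 and the connective tissue gene COL1A2 had more peaks in every Fts than in any Fs sample. The opposite was found for VIM, also a connective tissue marker. EPCAM, CD14 and DAZL had no peak. Their part in the results above was not tested.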

How the data were processed

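The authors trimmed the reads with cutadapt (version 1.9.3 in the submitters' processing notes), aligned them to susScr11 with Hisat2, ran MACS on each IP library with its input as control, and kept peaks on mRNAs. The value used is the deposited MACS score of each peak, which the authors did not scale between samples and which grows with read depth. No depth is given in the lists, and the library depths that the study reports were not used. A further deposited list of sites that differ between the groups holds the authors' own comparison and was not used.

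Peaks were placed with Python 3.11.15 on the RefSeq annotation of Sscrofa11.1. A peak belonged to an mRNA gene when at least 1 bp overlapped its exons on the same strand. The midpoint was placed on the longest coding transcript, with start and stop codon classes of 100 nt to each side. Overlapping peaks of the 6 lists were joined into regions. Single genes were tested by exact two-sided sign-flip and permutation tests, which went through every arrangement of the samples. Named were members with groups that did not overlap in peak number, with a region in all 6 samples or in 3 against 0, with the 10 highest scores or the 5 highest peak sums, and core MAPK and MAP2K genes; others named were chosen after their values were seen. The members, lists and rules were chosen with earlier results of these data known. The call by highest score was added after seeing the data. Fs and Fts came from the same 3 boars, and the study's methods name a paired design, but the labels do not tie a sample to 1 boar, so the spread between samples may be partly technical. The scripts were tested on simulated peak lists. Alternatives covered score minimums of 20 and 50, 8015 peaks per sample, strand, overlap, joined peaks, codon classes and omitted samples. Values of 1 member are not reported here and it is left out of the plots of single genes, while the counts include it.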

Additional observations from a re-analysis of the deposited data

How the results depend on the processing

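With score minimums of 20 and 50, the difference in member peaks per sample, Fts minus Fs, was 5 and 0 in place of 16, and that of the coding share was 23.7 and 33.3 points in place of 10.1. The genes with more peaks in every Fts sample numbered 2 and 1 in place of 4, of which MAPK6 remained at both and MAPK10 at 20. The genes higher in Fs numbered 2 and 3 in place of 3, and MAPK8IP2 remained among them at both. MAP2K2 was new among them at 20, and DUSP13 and TAOK2 were new at 50. Regions in all samples numbered 0 at both minimums, regions of Fts 3 and 0, and regions of Fs 2 at both. With 8015 peaks per sample, regions of Fts numbered 8 and regions of Fs 3, and the peak difference was 7.67. The calls of MAP4K3 and DUSP5 were lost, while DUSP16, PAK2 and MAP4K4 became higher in Fts and MAP3K19 higher in Fs. Genes higher in Fts thus numbered 6 and genes higher in Fs 3. The difference in genes with a peak, -1, was smaller than the spread and changed sign at a score of 20 (1.67).

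Leaving out each replicate in turn gave differences of 11.3 to 24.3 peaks, -3.17 to 1.83 genes with a peak and 6.34 to 13.0 points of coding share. Genes higher in Fts numbered 5 to 9, genes higher in Fs 3 to 6, regions in all samples 3 to 6, regions of Fts 13 to 24 and regions of Fs 6 to 8. The stricter overlap with exons, the ignored strand and joined peaks kept the 4 and 3 called genes, with a peak difference of 9.67 for joined peaks. Joined peaks gave no value for regions. They were added after seeing the data for single genes.

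The labels do not say whether equal numbers mark the same boar. Deviations of same-numbered samples correlated at 0.010, -0.014 and 0.013, so the numbers did not show a pairing. Without the replicate block the smallest p of a single gene was 0.1, in place of 0.25 with it. Peak lists without read depth limit what a missing peak can show.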
